A study of Mus musculus with 24 samples.

Results

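The growth hormone, STAT5 and IGF1 axis was read through 10 transcripts, taken by their gene symbols from the 24532 genes of the deposited FPKM table (fragments per kilobase, relative to all fragments of a library). They were *Ghr*, the growth hormone receptor; *Stat5a* and *Stat5b*, the transcription factors below it; *Igf1*, *Igfals*, *Socs2*, *Cish* and *Bcl6*, genes that STAT5 is known to control; and *Igfbp1* and *Igfbp2*, binding proteins for IGF1. All 10 were found, each at 1 place in the mm10 genome. RNA came from the liver, inguinal white adipose tissue (iWAT), gastrocnemius muscle (GM) and hypothalamus of C57BL/6 mice aged 8 weeks and fed chow. Every mouse carried floxed *Crif1* alleles (genotype Crif1flox/flox). LKO mice also carried Alb-Cre, in which the albumin promoter drives Cre recombinase in hepatocytes, and Ctrl mice carried no Cre, so the presence of Cre and the loss of *Crif1* cannot be told apart. There were 3 libraries per genotype and tissue, 24 in all, named here Ctrl 1 to 3 and LKO 1 to 3. The labels used here do not say whether libraries with the same number came from the same mouse, nor do they give the sex, the feeding state or the hour of collection, and p-values measure the spread between these libraries. The comparison of LKO with Ctrl in each tissue addresses how a defect of oxidative phosphorylation that starts in hepatocytes is reflected in the liver and in tissues where *Crif1* was not targeted.

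Growth hormone is released by the pituitary in pulses and binds GHR, whose partner kinase JAK2 phosphorylates STAT5A and STAT5B. In hepatocytes STAT5 drives *Igf1*, whose product circulates bound to IGFBP3 and IGFALS, and also drives *Cish* and *Socs2*, which damp the signal. BCL6 is a repressor that competes with STAT5 for its sites and is itself repressed by STAT5, and the timing of the pulses sets many of the differences between male and female liver.

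*Crif1*, listed as *Gadd45gip1*, encodes a protein of the mitochondrial ribosome. In liver it was at 14.6, 12.5 and 13.6 FPKM in Ctrl and 5.40, 2.002 and 2.51 FPKM in LKO, and the groups did not overlap. Depth was between 4.45 and 8.09 gigabases per library (median 5.19), as worked out from coverage and FPKM. The median difference over all 10956 genes tested in liver was 0.33 on the log2(FPKM + 1) scale towards LKO, against −0.01 to −0.03 in the other tissues. Liver differences are therefore also given after median-ratio scaling of the libraries, which left a median of −0.04. The other tissues carried their own markers: summed adipocyte markers were at 21490 to 27860 FPKM in iWAT, muscle fibre markers at 90720 to 102200 in GM and neuron markers at 2612 to 3220 in hypothalamus, while muscle fibre markers in iWAT ranged from 34.8 to 838.1 between libraries. In bulk tissue, fewer cells of a type and less RNA per cell cannot be told apart. The summed FPKM of 7 hepatocyte markers was 67680 to 71210 in Ctrl livers and 46840 to 76180 in LKO livers. Of the 7, 2 were called lower with and without scaling. The median log2 difference of the 7 was −0.40 as deposited and −0.85 after scaling. Summed markers of monocytes, macrophages and neutrophils were at 69.2 to 75.5 FPKM in Ctrl and 185 to 266.2 in LKO, and those of Kupffer cells at 93.4 to 97.5 and 205 to 325.5. By flow cytometry the study reported more infiltrating monocytes but fewer resident Kupffer cells in LKO livers. Summed Kupffer cell transcripts are thus not a count of cells. Bile duct markers summed to 30.7 to 31.8 and 41.6 to 88.9, and stellate cell and fibroblast markers to 64.4 to 71.5 and 174.5 to 192.8. All tested markers of these 4 lists rose (7 of 7, 5 of 5, 5 of 5 and 5 of 5, and 7, 4, 3 and 3 of them after scaling), none of the 5 lymphocyte markers reached the level for a test, and the part of these cells in the liver results below was not tested.

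To show where the axis can be read on DNA, 2 short motifs were searched in promoter windows from RefSeq (build GRCm38.p6), each running from 250 bases before a transcript start to 50 bases from it. Windows were matched for 9 of the 10 genes, 16 windows in all; *Socs2* is named only. The STAT motif TTCNNNGAA, which reads the same on both strands, was in 5 windows of 3 genes: *Cish*, *Igfals* and *Bcl6*. Of all 32851 windows, 8.3% hold it. The insulin response sequence CAAAACA, to which FOXO proteins bind, was searched on both strands and was in 1 window, that of *Igfbp1*, against 6.28% of all windows. A match of letters is a description and not a measured site. The 4 stretches below, 1 for each gene with a match, show part of these matches in capitals, since the genes they belong to are the ones whose liver values are set out next. The *Cish* stretch is chr9:107296654-107296683 (+), with matches whose first bases are bases 1 and 12 of the transcript. It lies where *Gm17040* overlaps on the other strand in the GENCODE annotation. The *Igfals* stretch, at the second of its 3 starts, is chr17:24877981-24878214 (+), 1 match at −58 from that start. The *Bcl6* stretch, at the second of its 2 starts, is chr16:23981284-23981533 (−), 3 matches at −168, −122 and −88. The *Igfbp1* stretch is chr11:7197537-7197781 (+), 1 match at −108.
Cish: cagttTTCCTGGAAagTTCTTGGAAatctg
Igfals: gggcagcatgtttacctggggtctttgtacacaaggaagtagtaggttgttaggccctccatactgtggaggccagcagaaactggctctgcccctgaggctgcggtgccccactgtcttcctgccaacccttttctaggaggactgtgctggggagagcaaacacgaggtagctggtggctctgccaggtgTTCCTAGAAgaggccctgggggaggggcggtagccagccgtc
Bcl6: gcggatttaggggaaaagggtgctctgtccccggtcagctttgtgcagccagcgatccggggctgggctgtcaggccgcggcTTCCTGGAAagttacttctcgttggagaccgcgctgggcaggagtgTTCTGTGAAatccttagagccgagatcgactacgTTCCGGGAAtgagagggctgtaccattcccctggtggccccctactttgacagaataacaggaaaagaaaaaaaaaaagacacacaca
Igfbp1: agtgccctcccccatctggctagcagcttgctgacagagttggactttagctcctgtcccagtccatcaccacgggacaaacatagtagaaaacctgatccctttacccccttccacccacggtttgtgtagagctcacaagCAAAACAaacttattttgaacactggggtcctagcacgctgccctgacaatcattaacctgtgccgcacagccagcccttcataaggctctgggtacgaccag

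The axis was not spread evenly over the tissues of Ctrl mice, and liver was not the highest for each gene. *Ghr* was highest in iWAT at 469.8 FPKM ± 51.3 (SD, n = 3), then in liver at 176.8 ± 8.87, in GM at 40.5 ± 8.29 and in hypothalamus at 6.56 ± 0.227, with no overlap between neighbours in this order. *Igf1* was at 49.9 FPKM ± 7.49 in liver and 42.4 ± 6.83 in iWAT, which overlapped, and at 5.34 in GM and 1.24 in hypothalamus, which did not. *Igfals*, which encodes the acid labile subunit of the circulating IGF1 complex, followed the same order, from 57.6 FPKM ± 9.21 in liver to 30.0 ± 6.89 in iWAT, 3.00 in GM and 0.123 in hypothalamus, with no overlap.

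The 2 STAT5 genes differed in this order. *Stat5a* was at 25.4 FPKM ± 2.83 in iWAT, 6.64 ± 0.392 in GM, 5.42 ± 0.673 in liver and 1.96 ± 0.179 in hypothalamus, again without overlap between neighbours. *Stat5b* was highest in GM at 67.9 FPKM ± 3.13, while iWAT, hypothalamus and liver overlapped at means of 19.7, 18.07 and 18.04. *Stat5a* and *Stat5b* are close copies that lie beside each other on chromosome 11, so reads may have been split between them in the counting. *Bcl6* was at 22.8 FPKM in GM and 15.7 in iWAT, which overlapped, and at 8.15 in hypothalamus and 7.61 in liver, which overlapped too. Neighbours overlapped at each step for *Cish* and *Socs2*. Ctrl 2 stood above the other Ctrl libraries for *Cish* in liver, iWAT and GM and for *Socs2* in liver. The binding proteins were the most restricted: *Igfbp1* was at 121.2 FPKM ± 42.5 in liver and at 0.511 or less in the other tissues, and *Igfbp2* was at 352.1 ± 58.4 in liver, 50.9 ± 25.6 in hypothalamus, 1.31 in GM and 0.0216 in iWAT. The GM libraries also held liver transcripts: the summed hepatocyte markers there were at 47.1 to 310.9 FPKM in Ctrl and 20.8 to 136.4 in LKO, with *Alb* at 167.5, 13.7 and 124.9 FPKM in Ctrl. *Igfbp1* in GM was at 0.629, 0.0844 and 0.818 FPKM in the same Ctrl libraries and *Igfbp2* at 2.22, 0.278 and 1.44, each lowest in Ctrl 2 as *Alb* was, and the part of liver RNA in their GM levels was not tested. These levels are a description of Ctrl tissues measured under 1 scaling per library.

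**Figure D1:**
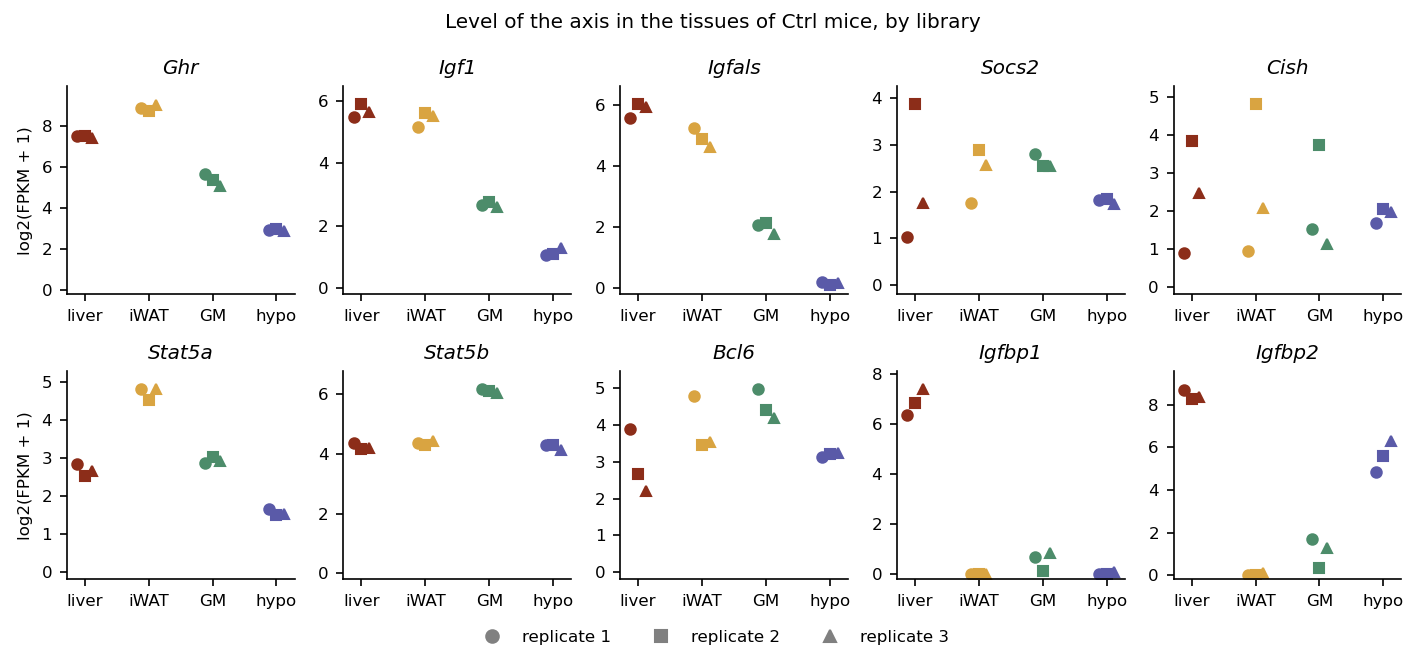
Level of each transcript in the 4 tissues of Ctrl mice on the log2(FPKM + 1) scale, 1 marker per library and 1 marker shape per replicate number, with its own vertical axis per gene. *Ghr* and *Stat5a* were highest in iWAT, *Stat5b* in GM and the binding proteins *Igfbp1* and *Igfbp2* in liver, while Ctrl 2 stood above the other libraries of *Cish* in liver, iWAT and GM.

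In liver, 3 of the 10 transcripts changed by at least 1.5-fold with an adjusted p under 0.05 (limma, Benjamini-Hochberg over all genes tested): *Igfbp1* and *Stat5a* rose and *Igfals* fell. Of all genes tested, 27.4% passed the same rule (23.9% higher and 3.5% lower in LKO), so 3 of 10 is near the background. The median log2 difference of the 10 was 0.07 against 0.33 for all genes. After median-ratio scaling 3 of the 10 again passed, but they were *Igfbp1* (higher) and *Ghr* and *Igfals* (lower), against 17.5% of all genes (8.99% higher and 8.53% lower). With no fold limit 4 of the 10 passed, against 43.8% of all genes. The groups did not overlap for 5 of the 10 (*Ghr*, *Igfals*, *Stat5a*, *Stat5b* and *Igfbp1*), against 61.1% of all genes tested.

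The receptor was lower in LKO liver. *Ghr* (chr15:3317755-3583352, minus strand) was at 181.5, 182.3 and 166.6 FPKM in Ctrl 1 to 3 and at 121.5, 117.4 and 125.5 FPKM in LKO 1 to 3. Each LKO library was below each Ctrl library and both groups were tight. The log2 difference was −0.54 (95% interval −0.77 to −0.31), a 1.45-fold lower level with an adjusted p of 0.00689, which is past the p limit and short of the 1.5-fold limit. Relative to the other genes of the library the gap was wider: after median-ratio scaling it was −0.98 ± 0.121 (SE) with an adjusted p of 0.00324, and *Ghr* then passed both limits. The medians of the 7 hepatocyte markers were −0.40 as deposited and −0.85 after scaling. The part of hepatocyte RNA in the *Ghr* values was not tested. The log2 difference of *Ghr* was below 0 under each of the 13 settings run, from −0.98 to −0.42.

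The STAT5 genes leaned the other way on the deposited scale. *Stat5a* (chr11:100859351-100885169, plus strand) was at 6.12, 4.78 and 5.35 FPKM in Ctrl and 8.14, 9.71 and 11.7 in LKO, without overlap. It rose by 0.75 on the log2 scale (95% interval 0.39 to 1.11), with an adjusted p of 0.0106. This call rests in part on 1 library, since without Ctrl 2 the log2 difference was 0.68 with an adjusted p of 0.0504. After median-ratio scaling the difference was 0.36 with an adjusted p of 0.0285, under the fold limit. *Stat5b* (chr11:100780731-100850585, minus strand), the more abundant of the pair in liver, was at 19.6, 17.1 and 17.5 FPKM in Ctrl and 20.2, 23.4 and 25.3 in LKO. The ranges did not overlap, but the difference of 0.33 (adjusted p 0.0588) was the same as the median over all liver genes and turned to −0.09 after scaling (adjusted p 0.376).

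Of the endocrine products of the axis, *Igfals* passed and *Igf1* did not, and the difference between the 2 was not tested. *Igfals* (chr17:24878770-24882008, plus strand) was at 47.2, 64.5 and 61.3 FPKM in Ctrl and 34.4, 28.7 and 22.2 in LKO, with every LKO library below every Ctrl library. It fell by 1.00 on the log2 scale (95% interval −1.44 to −0.56), a 2.005-fold lower level with an adjusted p of 0.00763, and by 1.43 after scaling (adjusted p 0.00985). *Igf1* (chr10:87858265-87937047, plus strand) was at 43.2, 58.0 and 48.5 FPKM in Ctrl and 58.4, 43.1 and 36.8 in LKO. The highest of all 6 livers was LKO 1 and the lowest was LKO 3, so the groups overlapped. Within each genotype the livers ranked as they did for *Igfals*, Ctrl 2 above Ctrl 3 and Ctrl 1, and LKO 1 above LKO 2 and LKO 3. Its log2 difference was −0.13 (95% interval −0.57 to 0.32, adjusted p 0.586) and −0.56 after scaling (adjusted p 0.144), and it was 0.02 without LKO 3. The antisense gene *Igf1os* shares 5117 bases with the *Igf1* span, and the sources used here do not say whether counting used strand.

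The feedback genes differed more between single livers than between genotypes. *Socs2* (chr10:95411490-95416857, minus strand), which encodes an inhibitor of GHR signalling, was at 1.03, 13.7 and 2.36 FPKM in Ctrl and 2.75, 4.43 and 4.38 in LKO. *Cish* (chr9:107296659-107302784, plus strand), another STAT5-induced inhibitor, was at 0.865, 13.3 and 4.61 FPKM in Ctrl and 1.31, 7.15 and 2.25 in LKO. For both genes Ctrl 2 was the highest liver and Ctrl 1 the lowest, and the LKO livers lay between them. The log2 differences were 0.04 for *Socs2* (95% interval −1.49 to 1.58, adjusted p 0.96) and −0.43 for *Cish* (95% interval −2.20 to 1.34, adjusted p 0.645), and intervals this wide leave changes of more than 2-fold in either direction undetected. Without Ctrl 2, *Socs2* was at 0.88 and *Cish* at 0.29. *Bcl6* (chr16:23965050-23988852, minus strand) was at 13.9, 5.34 and 3.62 FPKM in Ctrl and 17.7, 6.50 and 22.0 in LKO. LKO 2 lay among the Ctrl livers and Ctrl 1 among the LKO livers, and the log2 difference was 0.96 (95% interval −0.29 to 2.21, adjusted p 0.167).

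Of the binding proteins, 1 carried the largest change of the axis. *Igfbp1* (chr11:7197787-7202546, plus strand), which is known to be repressed by insulin and raised by fasting and cell stress, was at 82.3, 114.7 and 166.6 FPKM in Ctrl and 294.9, 608.6 and 826.1 in LKO. The lowest LKO liver was above the highest Ctrl liver, and the LKO livers differed among themselves by more than the Ctrl livers did. It rose by 2.18 on the log2 scale (95% interval 1.24 to 3.12), a 4.52-fold higher level with an adjusted p of 0.00735, and by 1.74 ± 0.356 (SE) after scaling (adjusted p 0.0142). *Igfbp2* (chr1:72824480-72852471, plus strand), the most abundant binding protein transcript of the 2 in Ctrl liver, was at 418.1, 307.1 and 331.2 FPKM in Ctrl and 447.1, 389.8 and 302.6 in LKO. Its groups overlapped fully, with a log2 difference of 0.10 (95% interval −0.33 to 0.54, adjusted p 0.652) and of −0.34 after scaling (adjusted p 0.33).

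**Figure D2:**
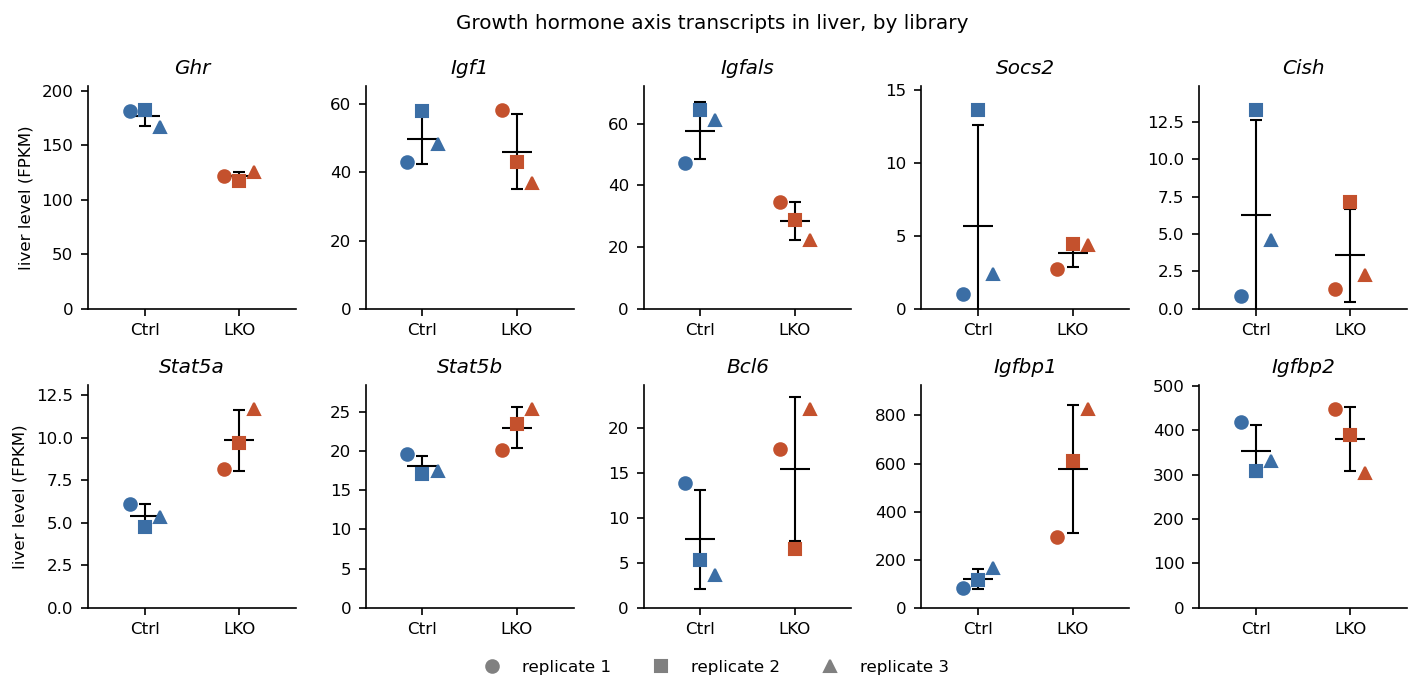
Liver level in FPKM of each of the 10 transcripts, with 1 marker per library, marker shapes for replicates 1 to 3, a dash at the mean and a bar of ± 1 SD that is cut at 0; each axis starts at 0. LKO livers were below Ctrl livers for *Ghr* and *Igfals* and above them for *Stat5a*, *Stat5b* and *Igfbp1*, and 1 Ctrl liver stood far above the rest for *Socs2* and *Cish*.

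Other genes of the pathway were read from written lists. In the list of GHR signalling partners, 16 of 17 genes were tested in liver, and 3 rose and none fell: *Ptpn2* (0.82, adjusted p 0.00901) and *Ptpn11* (0.66, adjusted p 0.0177), which encode phosphatases of this pathway, and *Stat3* (0.69, adjusted p 0.00432). That is 18.8% of those tested, below the 23.9% of all liver genes called higher. The list median was 0.39 against 0.33 for all genes, and after scaling none of the 16 passed. *Ptpn11* lost its call without any 1 of Ctrl 1, Ctrl 2, Ctrl 3 or LKO 2 (adjusted p 0.0554 to 0.0683) and fell under the fold limit without LKO 3. *Jak2*, the kinase of the receptor, was at 0.34 with an adjusted p of 0.0551.

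In the IGF system list, 8 of 15 genes were tested in liver and 5 rose (62.5%, against 23.9% of all liver genes), with a list median of 0.76 against 0.33 for all genes. They included *Igfbp3*, the main carrier in the circulating IGF1 complex, at 5.33, 5.53 and 5.32 FPKM in Ctrl and 15.4, 10.04 and 16.02 in LKO (log2 difference 1.19, adjusted p 0.00379). The partners of that complex thus went in opposite directions, *Igfbp3* up and *Igfals* down, and both kept these directions after scaling, *Igfbp3* at 0.79. *Igfbp7* rose by 0.99 (adjusted p 0.0024), *Grb10*, an adaptor that damps insulin and IGF1 receptors, by 0.95 (adjusted p 0.0221), and *Igf2r*, the receptor that clears IGF2, by 0.93 (adjusted p 0.0203). After scaling 2 of the 8 passed, both higher, against 8.99% of all genes. A gene low in Ctrl could also enter the test of this list through LKO alone, which bears on both counts. *Grb10* and *Igf2r* each lost the call without Ctrl 1, Ctrl 2, Ctrl 3 or LKO 2, with adjusted p values of 0.0561 to 0.0721 and 0.0636 to 0.0719. The markers of stellate cells and fibroblasts and of other cells given above moved in the same livers, and their part in these values was not tested. The receptor gene *Igf1r* did not reach the level for a test in liver.

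Called liver transcripts known to follow the male or the female pattern of growth hormone release went mostly in opposite directions. Of 14 male-biased transcripts tested (15 written), 13 fell and none rose, with a median of −1.73, and the same count passed after scaling with a median of −2.17. *Hsd3b5*, a steroid-metabolizing enzyme, was at 190.9, 185.5 and 212.8 FPKM in Ctrl and 1.81, 4.39 and 1.62 in LKO, a log2 difference of −5.85 (adjusted p 0.000136). *Elovl3*, a fatty acid elongase, fell by 3.92 (adjusted p 0.00103), *Cyp7b1*, an oxysterol hydroxylase, by 2.79 (adjusted p 0.00549), and *Selenbp2* by 2.78 (adjusted p 0.00345). *Cyp4a12b* was the exception at 0.17 (adjusted p 0.652). Several of these genes have close copies, among them *Cyp4a12a* and *Cyp4a12b*, so their separate values are uncertain where reads could be shared.

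Of 11 female-biased transcripts tested (20 written), 7 rose and 1 fell, with a median of 1.04. A gene low in Ctrl could enter the test through its 3 LKO libraries alone, where it is high. This count and median are therefore in part set by the filter. *Cyp2a4* was at 5.61, 3.91 and 2.496 FPKM in Ctrl and 91.0, 94.2 and 214.3 in LKO, a log2 difference of 4.67 (adjusted p 0.00053), though reads may be shared with its near copy *Cyp2a5*. *Cyp2b9* rose by 3.53 (adjusted p 0.00187). *Tox* rose by 1.84 (adjusted p 0.0359), a call lost without Ctrl 1, Ctrl 2, Ctrl 3, LKO 2 or LKO 3 (adjusted p 0.0618 to 0.112), after scaling (0.0562) and with no filter (0.0671). *Cyp2c69* was the 1 that fell, by 1.81 (adjusted p 0.00468). After scaling 4 of the 11 rose and 1 fell. The counts of the male-biased and female-biased lists stand beside 23.9% of all liver genes called higher and 3.5% called lower, and 8.99% and 8.53% after scaling.

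A short list held lipid genes that are known to rise when hepatic GHR or STAT5 is lost, and 4 of 5 were tested. The 4 rose with and without scaling, against 23.9% of all liver genes called higher as deposited and 8.99% after scaling. The list was written with earlier results of these data known, and a gene low in Ctrl could be tested through LKO alone. The count is therefore a description. *Cd36*, a fatty acid carrier, was at 7.10, 5.54 and 4.77 FPKM in Ctrl and 39.4, 66.1 and 84.3 in LKO, a log2 difference of 3.19 (adjusted p 0.000741). *Cidec*, a lipid droplet protein, rose by 2.58 (adjusted p 0.00225), *Pparg*, a regulator of fat storage, by 1.56 (adjusted p 0.00814), and *Vldlr*, a lipoprotein receptor, by 1.35 (adjusted p 0.00877). *Cd36* and *Pparg* are also used by macrophages and *Cidec* by adipocytes, and the part of such cells was not tested. Adipocyte markers in liver, of which *Cidec* itself is 1, summed to 17.6 to 18.3 FPKM in Ctrl and 36.8 to 40.3 in LKO. Of the 3 tested, 2 rose as deposited and 1 after scaling, where *Cidec* kept its call (2.27, adjusted p 0.00292).

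**Figure D3:**
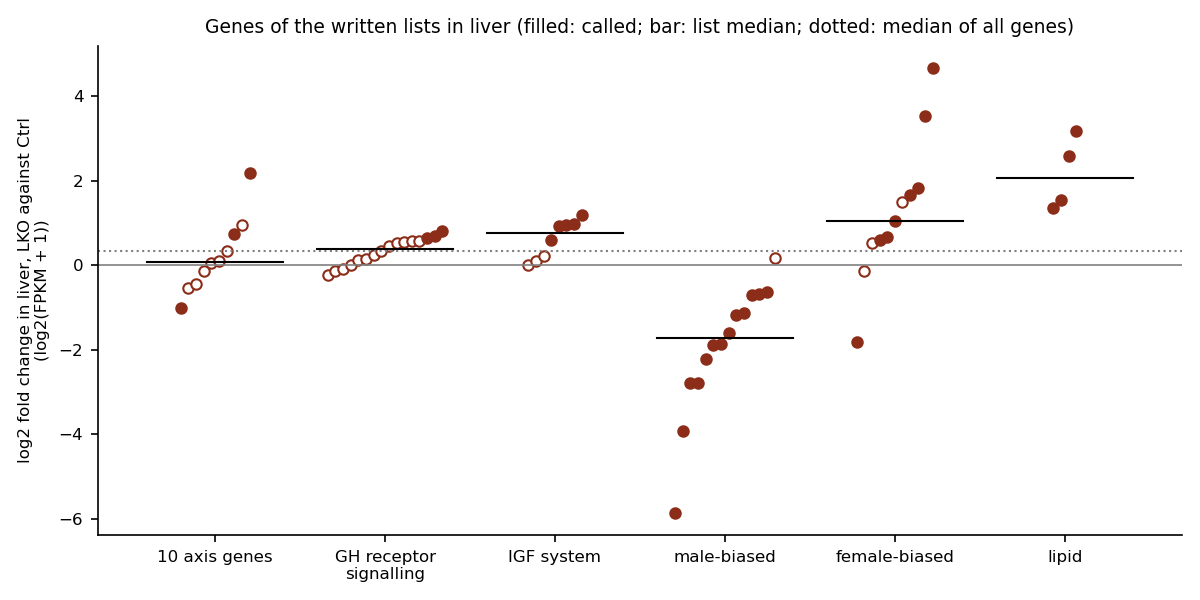
Log2 difference between LKO and Ctrl liver, on the log2(FPKM + 1) scale, of each tested gene of the 10-gene axis and of 5 written lists; filled points passed the fold and p limits, bars are list medians, and the dotted line is the median of all genes at 0.33. Male-biased transcripts lie below 0 except for 1, while the 10 axis genes spread on both sides of it.

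Outside the liver no transcript of the axis passed. In iWAT, 0 of the 8 tested passed, as did 0% of all genes, with 1842 of 12288 genes at an unadjusted p under 0.05. In GM it was 0 of 8 and 0% of all genes, with 743 of 10877 at an unadjusted p under 0.05. In hypothalamus it was 0 of 8 against 0.0217% of all genes (0.0217% lower and 0% higher), with 515 of 13828 at an unadjusted p under 0.05. With no fold limit the counts of axis genes in these tissues stayed at 0. Groups did not overlap for 0 of 8 in iWAT (20.8% of all genes), 0 of 8 in GM (11.6%) and 2 of 8 in hypothalamus (9.7%). *Igfbp1* and *Igfbp2* were under the level for a test in iWAT and GM, as were *Igfals* and *Igfbp1* in hypothalamus.

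The one axis gene outside the liver with an unadjusted p under 0.05 was *Igf1* in iWAT, where it was at 34.7, 47.6 and 44.9 FPKM in Ctrl and 38.1, 27.1 and 28.3 in LKO. LKO 1 lay within the Ctrl range and LKO 2 and LKO 3 below it. The log2 difference was −0.44 (95% interval −0.84 to −0.03), with an unadjusted p of 0.0378 and an adjusted p of 0.296. Summed markers of monocytes, macrophages and neutrophils in iWAT were at 670.5 to 1750 FPKM in Ctrl and 695.3 to 902.8 in LKO. Those of stellate cells and fibroblasts were at 2219 to 4054 and 2221 to 2880. The part of such cells in the *Igf1* value was not tested. *Igfals* in iWAT was at 37.5, 28.6 and 23.9 FPKM in Ctrl and 39.0, 12.6 and 9.14 in LKO, so LKO 1 was the highest library while LKO 2 and LKO 3 were the lowest (−0.79, 95% interval −1.96 to 0.39, adjusted p 0.494). This value was −1.37 without LKO 1 (adjusted p 0.0587) and −0.38 without LKO 3. *Ghr* in iWAT was close in both groups, at 423.2 to 524.8 FPKM in Ctrl and 443.9 to 550.8 in LKO. Its log2 difference of 0.08 had a 95% interval of −0.23 to 0.38.

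In GM the log2 differences of the 8 tested transcripts ran from −0.80 for *Cish* to 0.17 for *Igfals*. *Igf1* there was at 5.31, 5.72 and 4.99 FPKM in Ctrl and 8.14, 4.49 and 4.20 in LKO, where LKO 1 was the highest and the other LKO libraries the lowest. LKO 1 was also the highest GM library in the 5 summed lymphocyte markers, at 20.95 FPKM against at most 4.74 in Ctrl, and in the 10 summed markers of monocytes, macrophages and neutrophils, at 99.4 against at most 56.2, and the part of such cells in its *Igf1* value was not tested. *Stat5b*, which is most abundant in this tissue, was at 64.8 to 71.0 FPKM in Ctrl and 59.4 to 73.6 in LKO (−0.07, 95% interval −0.29 to 0.14). In hypothalamus *Ghr* was at 6.35 to 6.80 FPKM in Ctrl and 6.85 to 7.43 in LKO (0.10, adjusted p 0.999), and *Igf1* at 1.104 to 1.46 and 0.899 to 1.06 (−0.18, adjusted p 0.999). These were the 2 tested transcripts without overlap there, and neither passed.

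The signals that control growth hormone release were read in hypothalamus, where 10 of 12 written genes were tested and none passed, with a median of 0.05. *Ghrh*, the releasing hormone, was at 8.29, 15.6 and 18.9 FPKM in Ctrl and 17.8, 16.5 and 15.8 in LKO, and *Sst*, the inhibiting somatostatin, at 202, 283.4 and 318.2 and at 319.5, 298.8 and 318.2. For both genes Ctrl 1 was the lowest library and the others lay close together. *Gh* itself, a pituitary transcript, was at 34.6, 42.8 and 6.05 FPKM in Ctrl and 512, 150.7 and 110.2 in LKO (log2 difference 3.21, unadjusted p 0.00498, adjusted p 0.999). Summed markers of the pituitary, which adjoins the hypothalamus, were at 88.0 to 130.3 FPKM in Ctrl and 180.5 to 705 in LKO. *Gh* is part of this sum, so the sum partly restates the *Gh* value. *Prl*, also in the sum, was at 8.64, 2.48 and 0.369 against 56.1, 12 and 10.2. The part of pituitary tissue in the *Gh* value was not tested, and *Gh* was listed at 0 in each liver library. In liver the only gene of this list that could be tested was *Sstr2*, a somatostatin receptor. It rose by 1.39 (adjusted p 0.0212) and lost the call without Ctrl 1, Ctrl 2 or Ctrl 3 (adjusted p 0.0504 to 0.0775). The 12 genes of this list summed to 0.66 to 1.205 FPKM in Ctrl livers and 2.54 to 8.14 in LKO livers. In Ctrl *Sstr2* was thus near or under the level for a test, and a fall could hardly have been called.

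**Figure D4:**
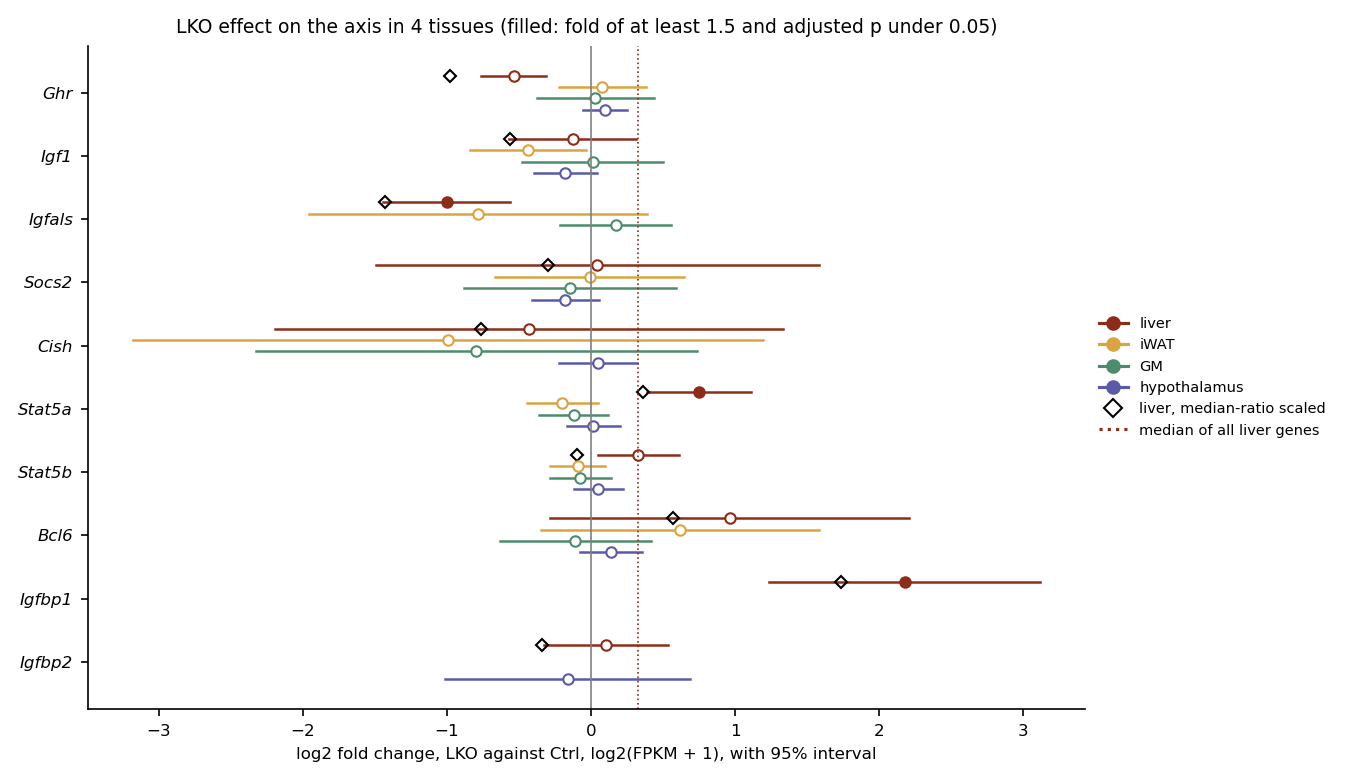
Log2 difference between LKO and Ctrl with its 95% interval for each tested transcript in the 4 tissues; filled points passed the fold and p limits, diamonds are the liver values after median-ratio scaling, and the dotted line is the median of all liver genes at 0.33. The filled points are liver *Igfals*, *Stat5a* and *Igfbp1*, and the intervals of *Cish* and *Socs2* in liver span 0 widely.

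The LKO effect was also compared between tissues in a joint limma fit, where an F test asked whether the effects in iWAT, GM and hypothalamus differ from that in liver. It passed an adjusted p of 0.05 for 4 of the 10 transcripts, against 33.5% of 15794 genes. One of the 4 was *Igfbp1*, which entered this fit only through liver and was under 1 FPKM in each library of the other tissues, where its effect has little room to depart from 0 on this scale. Its F test (adjusted p 0.00066, and 0.0923 with a pseudocount of 0.1) therefore adds nothing to the liver comparison. For *Stat5a* the effect in the other tissues was 0.73 to 0.95 lower than in liver on the log2 scale (adjusted p 0.000669). After scaling its effects lay closer together, at 0.36 for liver, −0.20 for iWAT, −0.10 for GM and 0.02 for hypothalamus (adjusted p 0.0175). For *Ghr* it was 0.57 to 0.63 higher (adjusted p 0.0233), and it missed the limit with deposited TPM (0.0636) and without liver Ctrl 1 (0.0611), liver Ctrl 2 (0.0668) or liver LKO 2 (0.0679). For *Stat5b* it was 0.28 to 0.42 lower (adjusted p 0.0475), with the contrast of hypothalamus alone at an adjusted p of 0.11, but it was over 0.05 in 22 of the 30 settings run, with 0.688 after scaling. *Igfals* missed the limit (adjusted p 0.127), so its lower level in liver was not shown to differ from the values in the other tissues.

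Between single libraries, *Cish* varied more than between genotypes. In liver it spanned 15.4-fold from Ctrl 1 to Ctrl 2, in iWAT 29.1-fold and in GM 14.6-fold, against 1.44-fold in hypothalamus. Ctrl 2 was the highest library in liver (13.3 FPKM), iWAT (27.2 FPKM) and GM (12.3 FPKM), where the next library was at 7.15, 3.33 and 2.79 FPKM. The order of all 6 libraries was the same in liver and in iWAT: Ctrl 2, LKO 2, Ctrl 3, LKO 3, LKO 1 and Ctrl 1, so that libraries with the same number were neighbours. *Bcl6* ran the other way there. The 3 libraries highest in *Cish* were the 3 lowest in *Bcl6*, at 6.50 FPKM or less against 13.9 or more in liver, and at 14.9 or less against 25.3 or more in iWAT. In GM the library highest in *Cish*, Ctrl 2, was below Ctrl 1 and LKO 1 and above the other libraries in *Bcl6*. These orders were noticed after the values were seen and carry no test, and the labels used here do not say whether the numbers mark the same mice. *Onecut1*, a liver transcription factor also known to respond to growth hormone, was looked up after the values were seen and was at 1.02, 16.5 and 5.11 FPKM in Ctrl livers and 1.53, 2.80 and 1.72 in LKO livers, highest again in Ctrl 2.

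**Figure D5:**
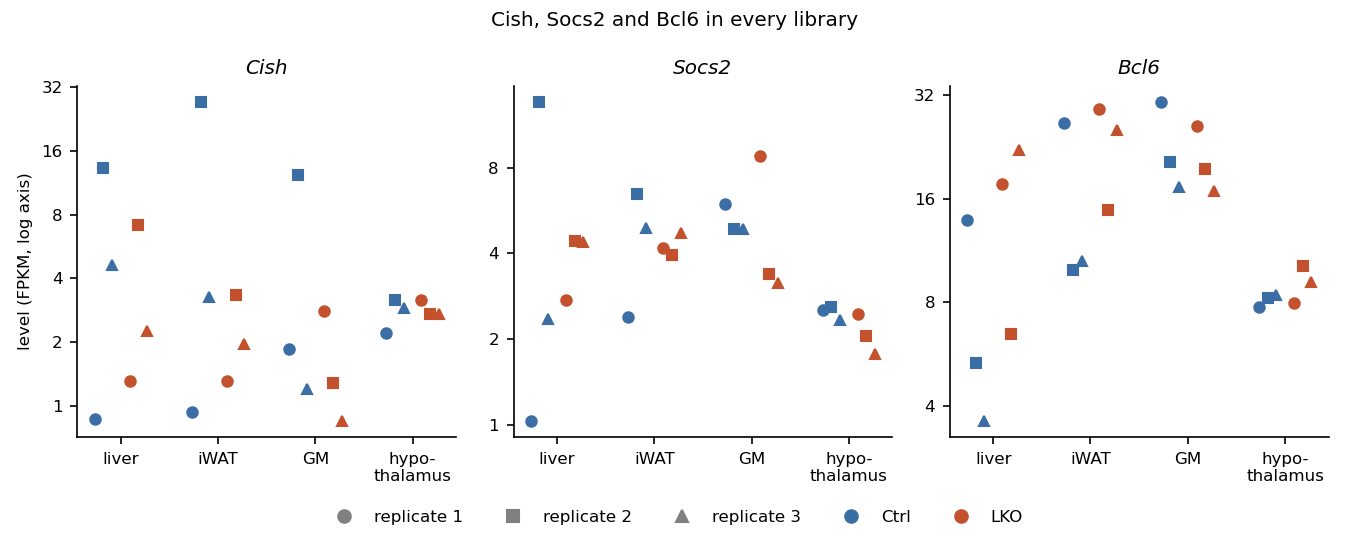
Level in FPKM, on a log axis, of *Cish*, *Socs2* and *Bcl6* in each of the 24 libraries, blue for Ctrl and orange for LKO, with marker shapes for replicates 1 to 3. Ctrl 2 is the highest point for *Cish* in liver, iWAT and GM, and the libraries with high *Cish* in liver and iWAT have low *Bcl6*, whereas in hypothalamus the points lie close together.

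Genes whose pattern over the 8 group means was most like that of *Igf1* or *Igfbp1* were named by the root mean square difference of centred log2(FPKM + 1), among 10955 genes. For *Igf1* they were *Serpinf1* (0.17), *AW112010* (0.19) and *Echdc3* (0.25). *Serpinf1*, for example, was at a mean of 387.2 FPKM in Ctrl liver and 323.7 in Ctrl iWAT, against 40.3 in GM and 11.7 in hypothalamus. For *Igfbp1* they were *Cyp2a5* (0.23), *Apoa4* (0.30) and *Hsd17b13* (0.32), which were near 0 outside liver. *Cyp2a5* was at a mean of 92.1 FPKM in Ctrl liver and 618 in LKO liver, and *Apoa4* at 75.9 and 467.8. The 8 means share libraries and scaling within each group, and the likeness is a description.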

How the data were processed

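RNA from liver, iWAT, GM and hypothalamus was sequenced from TruSeq libraries with paired reads. The authors deposited FPKM per gene on mm10 in 1 joined table, and for each library the mean coverage, FPKM and TPM (scaled by the authors to a fixed sum) of each gene. The submitters' processing notes name FastQC 0.11.5, Trimmomatic 0.32, HISAT2 2.0.5, Bowtie2 2.2.6, STAR 2.5.2b and StringTie 1.3.3b without roles. The deposited FPKM was equal in both kinds of table for 99.56% to 99.719% of genes, depending on the library. The deposited coverage served only to infer depth. The values are not counts, so no counting error is given.

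The 6 libraries of a tissue were compared in R 4.3.3 by limma 3.58.1 (lmFit, eBayes with trend) on log2(FPKM + 1). Genes had to reach 1 FPKM in 3 or more of them, and fold changes of low genes are understated. A gene could reach this level in 1 genotype alone and was then hardly able to change in the other direction. Calls needed a fold of at least 1.5 on that scale together with an adjusted p under 0.05 (Benjamini-Hochberg, across every gene tested in that tissue). The study gives the 1.5-fold limit and no test was given in the sources used here. The effect of genotype was compared between tissues in 1 fit of 24 libraries, which took libraries as independent. The fit was run on simulated data as a check of the code only. A gene found at several places in the genome occurred 244 times in the table and never among the 10. Of 165 symbols in the written lists, 164 were found. The 10 genes and the lists were chosen with earlier results of these data known. All 10 genes were named in each tissue. From each other list with a called gene, the up to 4 called genes with the largest log2 change were named, and other genes were named after their values were seen. The other settings run were no filter on low values, a pseudocount of 0.1, deposited TPM, median-ratio scaling, all 24 libraries in 1 fit, a replicate block, no fold limit and leaving out each library. An exact permutation test of 3 against 3 cannot go below 0.1 and was not used. Tables and plots were made with Python 3.11.15, numpy 2.4.6, pandas 2.3.3 and matplotlib 3.10.9.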

Additional observations from a re-analysis of the deposited data

Results flagged for a closer look

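For 4 of the 10 transcripts the LKO effect differed between tissues by the F test over the 3 contrasts with liver (limma, adjusted over 15794 genes), against 33.5% of all genes: *Igfbp1* with an adjusted p of 0.00066, *Stat5a* with 0.000669, *Ghr* with 0.0233 and *Stat5b* with 0.0475. *Igfbp1* entered this fit only through liver and was under 1 FPKM in each library of the other tissues, so its result restates the liver effect. For *Stat5b* the contrast of hypothalamus with liver alone had an adjusted p of 0.11. Over the 30 settings run the adjusted p ran from 5.53e-06 to 0.0923 for *Igfbp1*, which missed the limit with a pseudocount of 0.1, and from 6.3e-05 to 0.0175 for *Stat5a*, which never missed it. It ran from 0.000153 to 0.0679 for *Ghr*, and from 0.0082 to 0.688 for *Stat5b*.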

How the results depend on the processing

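Of the 10 transcripts, 3 passed in liver under each alternative except no fold limit, with 4, and leaving out single livers, with 2 to 3. The labels do not say whether the replicate numbers pair the samples, and the numbers did not meet the limit set for pairing: correlations of same-numbered liver deviations were 0.154, 0.0277 and 0.0359, in iWAT 0.302, −0.124 and 0.205, in GM 0.354, 0.0499 and 0.163, and in hypothalamus −0.135, 0.14 and 0.0855, not each over 0.1 in any tissue, and with a replicate block 3 passed in liver and 0 in each other tissue, with *Bcl6* in liver at an adjusted p of 0.0987. The genotype by tissue test passed 4 transcripts (33.5% of all genes), *Igfbp1* among them except with a pseudocount of 0.1, and 3 under each other alternative, the block included, with 2 to 4 when 1 library was left out (2 without liver Ctrl 2 or liver LKO 2). GHR signalling genes called higher in liver were 3 on the deposited scale, 5 with a pseudocount of 0.1, 7 with deposited TPM, 0 after median-ratio scaling, 6 with no fold limit and 2 to 6 with 1 library left out (6 without LKO 1). IGF system genes called higher were 5, then 2 after scaling and 2 to 5 with 1 library left out (2 without Ctrl 1, Ctrl 2 or LKO 2, and 3 without Ctrl 3). Female-biased transcripts called higher were 7, then 4 with no filter, 4 after scaling and 4 to 8 with 1 library left out (4 without Ctrl 2, Ctrl 3 or LKO 2). *Sstr2*, the gene tested for the hypothalamic list in liver, went from 1 call to 0 to 1. Scaling turned *Socs2* (−0.30), *Stat5b* (−0.094) and *Igfbp2* (−0.34) in liver below 0, and *Socs2* in iWAT turned to 0.0088 with a pseudocount of 0.1 and 0.026 with TPM. The cause was not tested.

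With 1 library left out, log2 values that turned were, in liver, −0.31 to 0.019 for *Igf1*, −0.55 to 0.88 for *Socs2*, −1.19 to 0.29 for *Cish* and −0.023 to 0.26 for *Igfbp2*. In iWAT they were −0.33 to 0.23 for *Socs2* and −1.83 to 0.11 for *Cish*. In GM they were −0.11 to 0.18 for *Ghr*, −0.25 to 0.16 for *Igf1*, −0.54 to 0.076 for *Socs2*, −1.30 to 0.0052 for *Cish* and −0.28 to 0.11 for *Bcl6*. In hypothalamus they were −0.062 to 0.13 for *Cish*, −0.016 to 0.064 for *Stat5a*, −0.0040 to 0.095 for *Stat5b* and −0.53 to 0.21 for *Igfbp2*. None of these had passed. Of 180 single-gene values in liver under alternatives that keep all libraries, 168 kept direction and call, and with 1 library left out it was 151 of 180, with 22 calls lost and 7 directions turned. In hypothalamus the 95% intervals of the low genes were −0.22 to 0.32 for *Cish*, −0.41 to 0.05 for *Socs2* and −0.40 to 0.04 for *Igf1*. With 3 libraries a group and FPKM without counts, differences within these intervals could have been missed.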
